A study of Rattus norvegicus with 9 samples.

Results

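Genes of the ubiquitin pathway were followed through 9 RNA sequencing libraries of rat heart. The members were all genes whose deposited name begins with Ube2, Fbxl, Fbxo, Fbxw, Trim, Usp, Asb, Klhl or Cul, with a number after the stem where the family is numbered, and Ube2c was left out. The rule is one of names. It found 158 symbols at 159 loci, because Usp31 named loci on chromosomes 1 and 5, out of 24662 loci in all. The filter, a value of 1 or more in any 3 libraries, was met by 125 of the 159 loci and by 14115 loci of the whole series. By family the loci that passed were 35 of 43 Fbx, 24 of 26 Usp, 20 of 24 Klhl, 18 of 37 Trim, 15 of 15 Ube2, 9 of 10 Asb and 4 of 4 Cul. The other 34 loci never exceeded 1.90, and 7 of them were listed at 0 throughout. Fbxo16 and Fbxo24 passed only through fetal libraries, and 8 loci (Asb10, Asb16, Fbxl14, Fbxl16, Fbxw10, Klhl34, Trim67 and Usp18) only through adult ones, so that a difference in level was built into the choice of these 10. Ube2t and Fbxo48 also needed fetal libraries to reach 3. Usp6nl and Ube2cbp carry the names but are not a protease and not an E2 enzyme.

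All 3 groups were Sprague-Dawley rats, with 3 libraries each. TAC libraries were made from the left ventricle of adult rats after transverse aortic constriction, which narrows the aorta so that the heart pumps against a raised pressure. Sham libraries were made from adult left ventricle after the operation without the constriction. Fetal libraries were made from ventricle at embryonic day 18 and are numbered as litters. Adult libraries are not labelled as separate animals, the interval after surgery is not stated in what was used here, and p-values measure the spread between libraries. Fetal and adult libraries also differ in the region of the heart and in how RNA was isolated, and age cannot be told apart from these. Values are rescaled FPKM, which are fragments per kilobase of transcript brought to a common scale across libraries with a mean library total of 1000000.

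Ubiquitin is attached to proteins by a relay of an activating enzyme (E1), a conjugating enzyme (E2) and a ligase (E3), and chains of it commonly mark a protein for the proteasome. Most members here belong to ligases. Cullins are scaffolds that hold a RING protein at one end and a substrate adapter at the other: Fbx proteins serve Cul1, Klhl proteins serve Cul3, and Asb proteins, through their SOCS box, serve Cul5. Trim proteins carry their own RING. Usp proteins are proteases that take ubiquitin off again. In striated muscle a subset of adapters and Trim proteins is known for sarcomere turnover and membrane repair, and in dividing cells another subset times DNA repair, chromosome separation and exit from mitosis.

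Implied depth, in units of 1000000 fragments, ran from 6.37 to 11.65 in TAC, 11.89 to 21.58 in sham and 17.55 to 25.75 in fetal libraries. The median passing member held between 71 and 252 implied fragments, an estimate from the deposited confidence bounds. Of 14 cardiomyocyte markers, 4 could be found by name (Actc1, Mb, Nppa, Nppb), and they were expressed in every group. Actc1, a cardiac actin, was far higher in fetal replicate 2 than elsewhere, and the summed markers ran from 16983 to 138778 in fetal, 42526 to 50249 in TAC and 41977 to 46789 in sham libraries. All 9 measured markers of proliferation were higher in fetal than in sham libraries, with sums of 549.8 to 706 in fetal, 14.3 to 31.0 in TAC and 17.3 to 28.5 in sham. Macrophage markers (6 of 6 lower in fetal) summed to 57.9 to 68.2 in fetal, 293 to 486 in TAC and 274 to 507 in sham. Fibroblast markers were lower in fetal libraries for 5 of 6, and Postn was higher. Whether there are fewer cells of a type or less of its RNA per cell cannot be told apart in such tissue.

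Fetal against sham libraries addressed which ubiquitin genes differ between the fetal and the adult heart. Of the 125 loci, 67 (53.6%) differed at a Benjamini-Hochberg adjusted p below 0.05 in limma, 38 of them higher and 29 lower in fetal libraries. Over all loci tested 45.8% differed, 22.6% higher and 23.2% lower, so the share of members lower in fetal libraries (29 of 125) was at the background and that of members higher (38 of 125) above it; this excess was not tested. Their median log2 change was 0.16, and that of all loci was 0.04. A fitted change of more than 2-fold was called for 40 members, 23 of them higher and 17 lower. Among the 115 members that passed through libraries of both stages, 36 were higher and 24 lower. For both counts the share of all loci was not taken, and no excess is read from them. The 3 fetal values lay outside the range of all 6 adult values for 75 members, 42 above and 33 below, and this held for 48.0% of all loci. Where only transcripts of the reference annotation were counted, 25 members differed, 9 higher and 16 lower, beside 16.1% of all loci (5.82% higher, 10.2% lower), and 23 of them were among the 67 with the same direction. Under equal library totals 38 were higher and 20 lower, but there the median log2 change of all loci was 0.19. The share of all loci called in that setting was not taken.

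**Figure D1:**
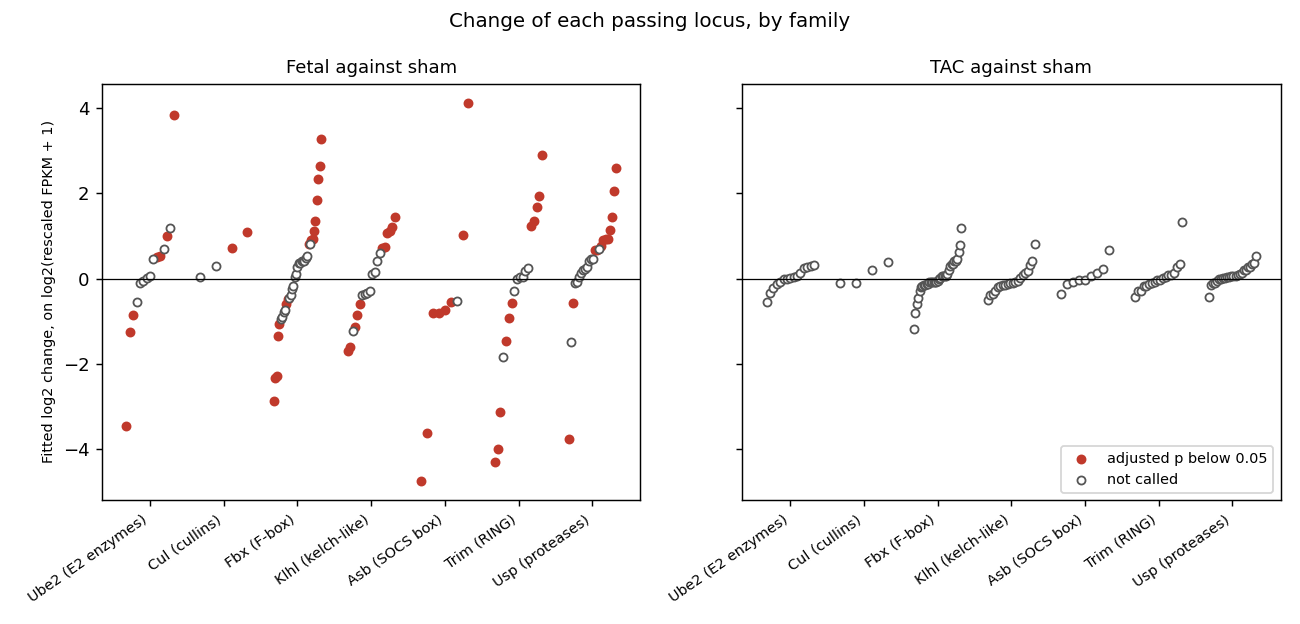
Fitted log2 change of each of the 125 passing loci, by family, for fetal against sham (left) and TAC against sham (right). Each point is a locus and filled points have an adjusted p below 0.05; fetal changes span -4.74 to 4.12 with called members in every family, and TAC changes span -1.19 to 1.33 with none called.

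The muscle-enriched ligases held the 2 most negative log2 changes of all members, those of Asb10 and Trim72. The list holds 21 names, of which 8 were measured; Fbxo32, Trim63 and Trim54 are among those not analysed here. In fetal libraries 5 of the 8 were lower (Asb10, Trim72, Asb11, Klhl31 and Asb16) and Trim55 was higher. Among all loci 23.2% were lower and 22.6% higher. The list was chosen with earlier results of these data known, so no excess is read from its counts. The median log2 change of the 8 was -1.25, beside 0.04 over all loci. Fbxl22 and Klhl38 did not pass the test. Asb10 and Asb16 passed the filter only through adult libraries, so a lower fetal level was built into their choice.

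Trim72 (also called MG53), a Trim protein that seals tears in the muscle membrane, lies on rn4 chromosome 1 from 187288064 to 187295961. Its values were 9.74, 21.2 and 20.7 in fetal, 248, 386 and 314 in TAC and 262, 288 and 502 in sham replicates 1 to 3. Every adult library was thus more than 10 times above the highest fetal one, and TAC and sham overlapped. The fitted log2 change was -4.29 ± 0.35 (SE, adjusted p = 3.04e-05). Asb10, an adapter of the SOCS box family on chromosome 4, from 6010912 to 6019443, held 0.333, 0.579 and 0.600 in fetal, 31.8, 51.6 and 40.3 in TAC and 32.1, 46.2 and 40.3 in sham libraries. No fetal library reached the filter of 1, and its log2 change of -4.74 ± 0.22 (adjusted p = 2.84e-06) was the lowest of all members. Asb11, a further SOCS box adapter, held 3.58, 8.93 and 5.64 in fetal, 86.1, 74.3 and 71.3 in TAC and 98.8, 72.4 and 76.0 in sham libraries, a log2 change of -3.62 ± 0.27 (adjusted p = 1.92e-05).

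Klhl31, a kelch-like protein of heart and skeletal muscle, had the highest mean of its family. It held 62.3, 68.1 and 70.6 in fetal, 229.8, 188 and 176 in TAC and 214, 209.8 and 238 in sham libraries. The fetal values lay close together and below all adult ones, with a log2 change of -1.70 ± 0.14 (adjusted p = 2.82e-05). Asb16 was weak throughout, from 0.131 to 0.417 in fetal and from 0.749 to 2.33 in adult libraries. Its log2 change was -0.80 ± 0.28 (adjusted p = 0.0482), and the call was lost in 12 of 16 alternative settings, the replicate block among them (adjusted p = 0.0655) and without any 1 of fetal replicates 1, 2 and 3 (0.121, 0.0918 and 0.161), sham replicates 2 and 3 (0.154 and 0.0771) or TAC replicates 2 and 3 (0.0563 and 0.0634).

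Trim55 (MuRF2), a RING protein that binds titin at the centre of the sarcomere, went the other way. It lies on chromosome 2 from 104721409 to 104763131 and held 289, 577 and 301 in fetal, 132, 161 and 128 in TAC and 113, 111 and 120.1 in sham libraries. All fetal values exceeded all adult ones, and fetal replicate 2, the library with the very high Actc1, was the highest. The log2 change was 1.68 ± 0.25 (adjusted p = 0.000913). TAC values also lay above the sham values, by a log2 change of 0.28 that was not called. Transcripts assembled in the libraries held 45.9% of the TAC value of Trim55 and 0% of its sham value. Its reference transcripts alone held 64.6, 69.7 and 93.5 in TAC, below the 113, 111 and 120.1 in sham libraries. Fbxl22, an F-box protein of the sarcomere, spread widely, with 12.9, 19.2 and 4.61 in fetal, 41.2, 14.2 and 135 in TAC and 20, 16.2 and 19.2 in sham libraries (log2 change -0.73 ± 0.74, adjusted p = 0.456). Klhl38, a kelch-like gene of muscle, held 15.7 to 18.5 in fetal, 11.3 to 29.2 in TAC and 17.4 to 25 in sham libraries, and these ranges overlapped. Of the 4 cardiomyocyte markers found, Mb, the oxygen store of muscle, was lower in fetal than in sham libraries (log2 change -4.32, adjusted p = 6.63e-05), Nppa, a natriuretic peptide, was higher (2.02, adjusted p = 0.0491), and Actc1 (0.58) and Nppb (0.45) were not called. The list's median was 0.51, and the part of these markers in the differences was not tested.

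**Figure D2:**
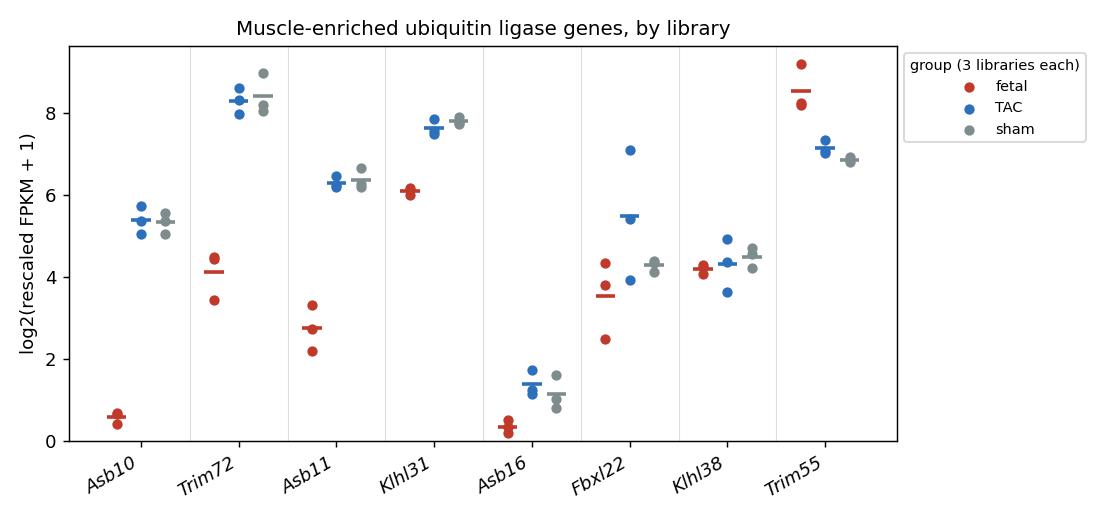
Values of the 8 measured muscle-enriched members, as log2(rescaled FPKM + 1) on the vertical axis, in 3 fetal, 3 TAC and 3 sham libraries (points) with group means (bars). Fetal points of Asb10, Trim72, Asb11, Klhl31 and Asb16 lie below all adult points, those of Trim55 lie above them, and TAC and sham overlap for each of the 8 but Trim55.

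The promoter of Trim72 is shown because Trim72 was the member furthest below its adult level among those whose promoter carries the core letters of a MEF2 site, CTA and TAG with any 4 bases between them. The window runs from 250 bases before to 50 bases after the start site in RefSeq (GRCr8 chr1:192043970-192044269, plus strand), and the capitals mark the match CTAAATATAG at bases 101 to 110.
Trim72: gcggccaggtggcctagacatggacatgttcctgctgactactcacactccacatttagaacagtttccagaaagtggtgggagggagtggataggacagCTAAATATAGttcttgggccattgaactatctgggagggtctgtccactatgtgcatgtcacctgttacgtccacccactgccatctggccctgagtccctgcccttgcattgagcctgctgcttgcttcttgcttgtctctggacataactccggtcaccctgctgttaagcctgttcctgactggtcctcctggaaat
Promoters of 103 of 124 member symbols were found in that table by symbol. On either strand the MEF2 letters stood in 2 of 22 members lower in fetal libraries (Asb16 and Trim72), 1 of 33 higher (Trim28) and 2 of 48 not called (Fbxo34 and Usp15), and in 3.83% of all 27457 promoters. The forkhead letters TGTTTAC stood in Asb16 alone, and in 3.76% of all promoters. Among the 5029 promoters of loci tested here the shares were 3.18% for the MEF2 letters and 2.07% for the forkhead letters.

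Cell cycle members went mostly the other way. Of 12 names 9 were measured. In fetal libraries 7 were higher (Ube2t, Fbxo5, Usp37, Usp1, Cul4b, Klhl13 and Ube2s), beside 22.6% of all loci. This list too was chosen with earlier results of these data known, and no excess is read from the count. Klhl21 was lower and Cul1 did not pass the test. The median log2 change of the 9 was 1.08. With reference transcripts alone, the changes of Usp37 (-0.89), Cul4b (-0.62) and Klhl13 (-0.99) were negative and not called. The call of Ube2s was lost in 12 of 17 alternative settings, and Ube2t passed the filter only with its fetal libraries counted. TAC and sham libraries overlapped for 8 of the 9, Cul4b being the exception. The proliferation markers given above moved the same way; their part in the differences was not tested.

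Ube2t, the E2 enzyme that puts single ubiquitins on Fanconi anaemia proteins at damaged DNA, lies on chromosome 13 from 47924339 to 47934842. It held 25, 25 and 30.6 in fetal, 0.447, 0 and 1.49 in TAC and 1.29, 0.843 and 0.721 in sham libraries. Adult values stayed near or below the filter, and the log2 change of 3.84 ± 0.33 (adjusted p = 3.95e-05) was the highest of the E2 genes, for a locus that passed the filter only with its fetal libraries counted. Usp1, the protease that removes those ubiquitins, held 36.9, 28.5 and 47.7 in fetal, 18.0, 14.7 and 12.9 in TAC and 13.8, 11.6 and 13.5 in sham libraries (log2 change 1.44 ± 0.21, adjusted p = 0.000711). The enzyme and its opponent were thus both higher in fetal libraries, Usp1 from an adult level well above 0.

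Fbxo5 (Emi1), an F-box protein that inhibits the anaphase-promoting complex, lies on chromosome 1 from 36492133 to 36498503. It held 29.6, 16.2 and 22 in fetal, 2.56, 1.41 and 0.844 in TAC and 1.66, 1.44 and 1.10 in sham libraries, a log2 change of 3.26 ± 0.30 (adjusted p = 6.5e-05). Ube2s, which lengthens ubiquitin chains on substrates of that complex, was abundant at both stages, with 130.1, 112 and 119 in fetal, 83.3, 74.7 and 73.2 in TAC and 104, 63.7 and 89.1 in sham libraries. Its log2 change was small, 0.52 ± 0.18 (adjusted p = 0.0448), and the call was lost in 12 of 17 alternative settings, including without any 1 of fetal replicates 1, 2 and 3 (adjusted p = 0.123, 0.0683 and 0.099), TAC replicates 1, 2 and 3 (0.0539, 0.0627 and 0.0628) or sham replicates 2 and 3 (0.115 and 0.0684).

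Usp37, a protease that stabilises cyclin A, held 19.5, 15.6 and 17.2 in fetal, 3.40, 3.30 and 2.11 in TAC and 1.72, 3.41 and 1.36 in sham libraries (log2 change 2.59 ± 0.27, adjusted p = 0.00013). Cul4b, a cullin whose adapter is DDB1, held 26.0, 16.3 and 22.4 in fetal, 13.3, 12.6 and 12.3 in TAC and 10.3, 9.44 and 8.81 in sham libraries (log2 change 1.08 ± 0.18, adjusted p = 0.00172). Klhl13, a Cul3 adapter that moves Aurora B during mitosis, held 45.9, 35.4 and 43.7 in fetal against 17.2 to 22.7 in adult libraries (log2 change 1.07 ± 0.16, adjusted p = 0.000887). In these 3 genes every fetal value lay above every adult value. Klhl21, an adapter with a like role in mitosis, was the exception: 20.6, 24.1 and 19.1 in fetal, 67.1, 61.3 and 57.8 in TAC and 64.5, 66.7 and 66.6 in sham libraries (log2 change -1.59 ± 0.13, adjusted p = 2.6e-05). Cul1, the F-box scaffold, held 92.0, 62.3 and 71.9 in fetal and 57.0, 61.3 and 63.4 in sham libraries, which overlapped (adjusted p = 0.146).

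**Figure D3:**
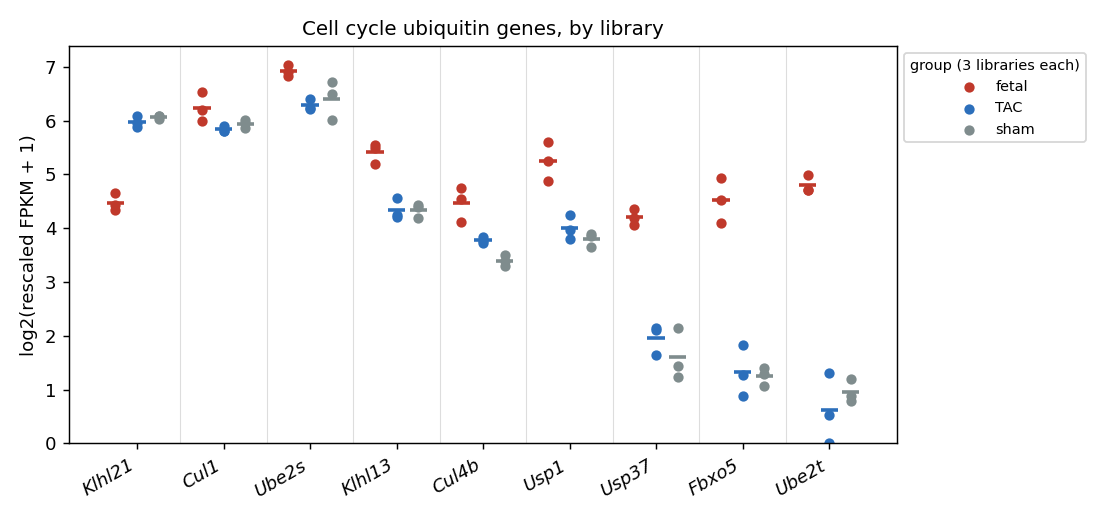
Values of the 9 measured cell cycle members, as log2(rescaled FPKM + 1) on the vertical axis, in 3 libraries of each group (points) with group means (bars). Adult points of Ube2t, Fbxo5 and Usp37 lie below those of the other 6, and Klhl21 alone has its fetal points below the adult ones.

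How the value of a locus was made bears on part of this group. Each library was assembled separately, and a locus sums the transcripts of the reference annotation and those assembled with them. Assembled transcripts held all of the fetal value of Asb4, Fbxo45 and Usp37, 76.6% of that of Cul4b and 79.4% of that of Klhl13, and 22.7%, 15.0% and 18.9% for Usp1, Fbxo5 and Ube2t. At the median member they held 24.6% in fetal, 9.2% in TAC and 12.8% in sham libraries. With reference transcripts alone, the log2 changes became -1.26 for Asb4 (adjusted p = 0.113), -0.89 for Usp37 (0.242), -0.62 for Cul4b (0.673), -0.99 for Klhl13 (0.606) and -1.72 for Fbxo45 (0.0472, a call in the opposite direction). The calls of Ube2t (log2 change 3.54, adjusted p = 0.00118), Fbxo5 (3.07, 0.00125), Usp1 (1.09, 0.0339) and Klhl21 (-1.29, 0.00326) stayed, as did those of Trim72, Asb10, Asb11, Klhl31 and Trim55 in the muscle group.

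**Figure D4:**
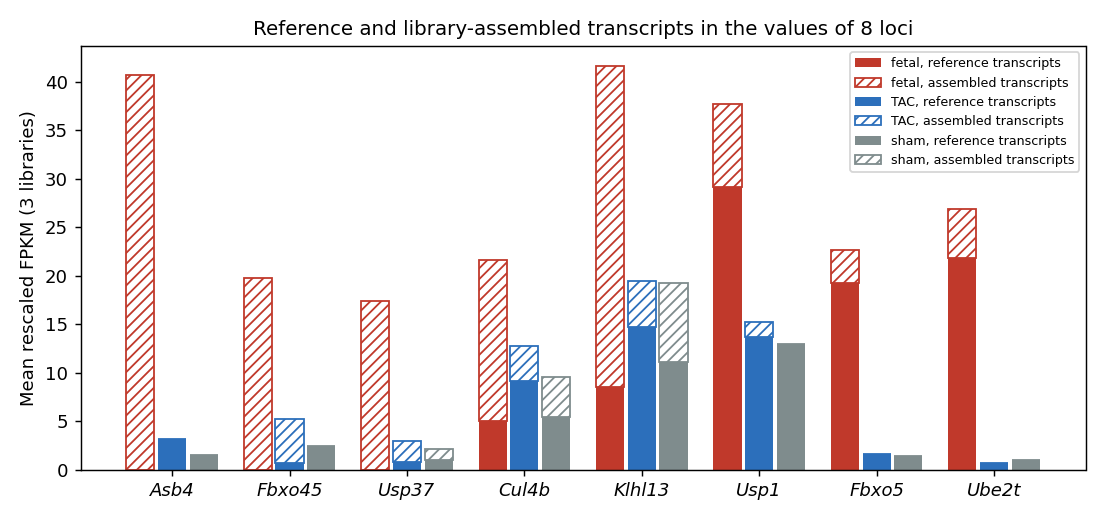
Mean rescaled FPKM of 8 loci in each group of 3 libraries, split into reference transcripts (solid) and transcripts assembled in the libraries (hatched). The fetal bars of Asb4, Fbxo45 and Usp37 are hatched throughout, while those of Usp1, Fbxo5 and Ube2t are mostly solid.

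The promoters of Fbxo5, Usp1 and Trim37, members higher in fetal libraries with reference transcripts alone as well, are shown with letters known from cell cycle genes in capitals. These are TTTGAA, the cell cycle homology region, in Fbxo5 (read as TTCAAA on the other strand, bases 255 to 260, just past the start site), and TTTNNCGC, a core of E2F sites, in Usp1 (bases 220 to 227) and in Trim37 (on the other strand, bases 45 to 52 and 138 to 145). The windows are GRCr8 chr1:44607732-44608031 on the minus strand for Fbxo5, chr5:118702806-118703105 on the plus strand for Usp1 and chr10:72440422-72440721 on the plus strand for Trim37.
Fbxo5: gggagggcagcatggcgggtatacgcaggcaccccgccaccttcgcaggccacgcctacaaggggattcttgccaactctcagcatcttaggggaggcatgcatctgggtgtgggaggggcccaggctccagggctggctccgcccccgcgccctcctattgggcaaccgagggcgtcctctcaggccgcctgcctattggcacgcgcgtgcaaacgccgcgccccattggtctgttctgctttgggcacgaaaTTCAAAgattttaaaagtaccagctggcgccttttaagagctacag
Usp1: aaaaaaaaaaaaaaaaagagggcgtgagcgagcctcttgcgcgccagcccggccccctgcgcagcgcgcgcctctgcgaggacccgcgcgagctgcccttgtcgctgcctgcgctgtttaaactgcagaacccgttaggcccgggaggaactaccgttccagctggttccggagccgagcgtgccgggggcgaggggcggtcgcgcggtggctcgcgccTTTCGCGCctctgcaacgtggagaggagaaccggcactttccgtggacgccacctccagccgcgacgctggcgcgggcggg
Trim37: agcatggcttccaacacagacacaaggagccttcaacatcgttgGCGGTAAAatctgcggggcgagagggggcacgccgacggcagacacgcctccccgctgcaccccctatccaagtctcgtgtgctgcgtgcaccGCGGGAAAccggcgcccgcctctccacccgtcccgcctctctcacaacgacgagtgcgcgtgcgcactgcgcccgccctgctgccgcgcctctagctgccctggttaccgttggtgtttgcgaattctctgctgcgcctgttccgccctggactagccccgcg
The E2F letters stood in 7 of 33 members higher in fetal libraries (Cul5, Fbxl7, Trim37, Ube2q1, Usp1, Usp22 and Usp3), in 0 of 22 lower and in 8 of 48 not called. They stood in 5.19% of all promoters and in 8.31% of the 5029 promoters of loci tested here. TTTGAA stood in 5 of 33 higher (Asb4, Cul4b, Fbxo5, Klhl5 and Usp14), 0 of 22 lower and 3 of 48 not called, beside 18.07% of all promoters and 11.35% of those tested. A match of these letters is a description and no measured site.

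Among the 15 Ube2 loci, grouped here as E2, 4 were higher and 3 lower in fetal libraries, beside 22.6% and 23.2% of all loci. The 46.7% called was close to the 45.8% of all loci. Ube2cbp, which is not an E2 enzyme, is counted among the 4 higher and in the sum below. The largest decrease was that of Ube2ql1, an E2-like gene, which held 1.38, 2.84 and 2.60 in fetal, 34.3, 34.0 and 34.0 in TAC and 34.3, 37.0 and 30.5 in sham libraries (log2 change -3.44 ± 0.20, adjusted p = 6.33e-06). Ube2b, a Rad6 enzyme of DNA damage tolerance, had the highest E2 mean over all 9 libraries, though Ube2s was higher in fetal ones, with 118, 80.6 and 73.4 in fetal, 230.2, 177 and 236 in TAC and 186, 272 and 192 in sham libraries. Its log2 change was -1.26 ± 0.23 (adjusted p = 0.00244, and -1.97 with adjusted p = 0.195 for reference transcripts alone), and its share of the summed E2 signal was 13.4% ± 2.6 in fetal, 28.9% ± 3.1 in TAC and 29.3% ± 5.7 in sham libraries (SD, n = 3). The summed E2 signal itself was 677 ± 87.3 in fetal, 739.6 ± 35.5 in TAC and 737 ± 18.1 in sham, so its parts differed more than its total. Ube2cbp, which is named after an E2 it binds, held 3.21 to 4.98 in fetal and 1.36 to 2.0 in sham libraries (log2 change 0.99 ± 0.25, adjusted p = 0.0125). That call was lost without fetal replicate 2 (0.0515) or 3 (0.0607) and with reference transcripts alone (0.353).

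Of the 4 cullins, 2 were higher in fetal libraries, Cul4b as given above and Cul5, and 2 were not called. The 50% called was close to the 45.8% of all loci, of which 22.6% were higher. Cul3, the most abundant, held 101, 64.2 and 72.5 in fetal, 75.1, 71.5 and 64.3 in TAC and 86.8, 67.6 and 74.9 in sham libraries, with a log2 change of 0.03 ± 0.18 (adjusted p = 0.9). Cul5, the scaffold of the Asb adapters, held 33.1, 25.6 and 34.6 in fetal against 15.8 to 25 in adult libraries (log2 change 0.71 ± 0.21, adjusted p = 0.0237). Its call was lost without fetal replicate 1 (0.0714) or 3 (0.0819), without sham replicate 3 (0.075), in replicates 2 and 3 alone (0.0558) and with reference transcripts alone (log2 change 2.28, adjusted p = 0.203). The fitted log2 changes of the 4 scaffolds lay between 0.03 and 1.08, and those of the Asb adapters between -4.74 and 4.12.

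Of 35 F-box loci 9 were higher and 7 lower in fetal libraries (45.7%, close to the background of all loci). Fbxo6, which recognises sugar chains on misfolded glycoproteins, had the highest mean of the family over all 9 libraries, though in fetal libraries Fbxo3 was higher (61.1 ± 18.7). It held 20.7, 25.4 and 21.3 in fetal, 91.5, 88.2 and 97.7 in TAC and 94.2, 124 and 121 in sham libraries (log2 change -2.27 ± 0.15, adjusted p = 9.66e-06). Fbxo31, an adapter for cyclin D1 after DNA damage, held 5.83, 13.6 and 11.6 in fetal against 39.2 to 80.5 in adult libraries (log2 change -2.32 ± 0.35, adjusted p = 0.000856), on a gene model of only 377 nt. Neither overlapped between fetal and adult libraries. Fbxw10 held 0.148 to 0.270 in fetal, 0.491, 4.56 and 5.62 in TAC and 12.6, 5.41 and 6.54 in sham libraries (log2 change -2.86 ± 0.55, adjusted p = 0.00306). It passed the filter only through adult libraries, so a lower fetal level was built into its choice. Assembled transcripts held 95.4% of its TAC value and 59.9% of its sham value, and its log2 change was -1.81 with reference transcripts alone. In the other direction Fbxo45, an adapter best known from neurons, held 21.1, 16.1 and 22 in fetal, 2.17, 6.41 and 6.95 in TAC and 2.48, 3.37 and 1.37 in sham libraries (log2 change 2.64 ± 0.38, adjusted p = 0.000731), with the dependence on assembled transcripts given above and a gene model of 649 nt. Fbxw9, at 0 in fetal replicate 3 alone, and Usp16, at 0 in fetal replicate 1 alone, were not called; they are named because their values stood out.

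Of 20 kelch-like loci 6 were higher and 5 lower (55%), beside 22.6% and 23.2% of all loci (45.8%). Klhl5 held 25.7, 19.6 and 21.7 in fetal against 6.29 to 8.75 in adult libraries (log2 change 1.43 ± 0.18, adjusted p = 0.000314), and Klhl11 held 11, 10.5 and 9.92 in fetal against 2.10 to 4.2 in adult libraries (log2 change 1.20 ± 0.19, adjusted p = 0.00126). With reference transcripts alone the adjusted p rose to 0.458 for Klhl5 and 0.824 for Klhl11. Summed over the family the level was 317 ± 11.7 in fetal, 463 ± 22.6 in TAC and 496 ± 31.8 in sham libraries. Klhl31 made up 21.2% ± 2.1 of the fetal sum and 44.5% ± 1.2 of the sham sum. Kbtbd10 and Kbtbd5, the older symbols of the muscle genes Klhl41 and Klhl40, fall outside the name rule. They were not called against sham: Kbtbd10 held 63.8 ± 2.58 in fetal and 75.0 ± 7.84 in sham, and Kbtbd5 4.41 ± 0.696 and 5.04 ± 0.751. Against TAC, Kbtbd10 was lower in fetal libraries (log2 change -0.43, adjusted p = 0.0166).

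Of 9 Asb loci 8 were called, 2 higher and 6 lower, beside 22.6% and 23.2% of all loci; families were not tested against each other. Among the 8, Asb1 (adjusted p = 0.0398), Asb13 (0.0435) and Asb16 (0.0482) lay close to the threshold. Its summed level was 114 ± 7.31 in fetal, 224 ± 13.9 in TAC and 228 ± 5.99 in sham libraries. Asb4, known from vascular and placental development, lies on chromosome 4 from 30150501 to 30188132. It held 43.3, 36.9 and 42.0 in fetal, 4.57, 3.74 and 1.09 in TAC and 2.42, 1.66 and 0.506 in sham libraries (log2 change 4.12 ± 0.42, adjusted p = 0.000101), the largest increase of any member, and it rests on assembled transcripts as said. Asb4 made up 35.7% ± 4.4 of the fetal Asb sum and 0.7% ± 0.4 of the sham sum, while Asb11 went from 36.2% ± 5.7 in sham to 5.3% ± 2.3 in fetal. Asb8, with the highest Asb mean over all 9 libraries though not within any 1 group, held 33.6, 40.5 and 40.8 in fetal against 59.6 to 76.1 in adult libraries (log2 change -0.81 ± 0.14, adjusted p = 0.00186), and its share of the sum was 33.4% ± 1.8 in fetal and 29.7% ± 1.8 in sham. Assembled transcripts held all of its fetal value, 67.9% in TAC and 92.7% in sham, and with reference transcripts alone it was not tested. Asb7 held 8.90, 5.88 and 10.3 in fetal against 3.07 to 4.26 in adult libraries (log2 change 1.02 ± 0.23, adjusted p = 0.00714). That call was lost in replicates 2 and 3 alone (0.0712), and the direction turned with reference transcripts alone (log2 change -0.63, adjusted p = 0.593).

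Of 18 Trim loci 5 were higher and 6 lower (61.1%), beside 22.6% and 23.2% of all loci (45.8%). The summed levels of the 3 groups overlapped at 823 ± 164 in fetal, 854 ± 69.5 in TAC and 862 ± 177 in sham libraries. Within that sum Trim72 held 2.1% ± 0.9 in fetal, 36.7% ± 5.2 in TAC and 39.8% ± 6.5 in sham, and Trim55 46.1% ± 10.1, 16.4% ± 1.1 and 13.6% ± 2.0. Trim50, best known from stomach, held 1.80, 2.28 and 2.92 in fetal, 49.4, 48.6 and 61.4 in TAC and 46.0, 55.2 and 52.9 in sham libraries (log2 change -3.98 ± 0.17, adjusted p = 2.15e-06). Trim59 held 30.3, 19.2 and 22.1 in fetal against 1.24 to 3.28 in adult libraries (log2 change 2.89 ± 0.31, adjusted p = 0.000132). Trim37, a RING protein that limits centriole number, held 30.6, 24.6 and 27.6 in fetal, 4.13, 3.83 and 8.01 in TAC and 6.08, 5.80 and 7.63 in sham libraries (log2 change 1.93 ± 0.26, adjusted p = 0.000442). Each of these showed no overlap between fetal and adult libraries.

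**Figure D5:**
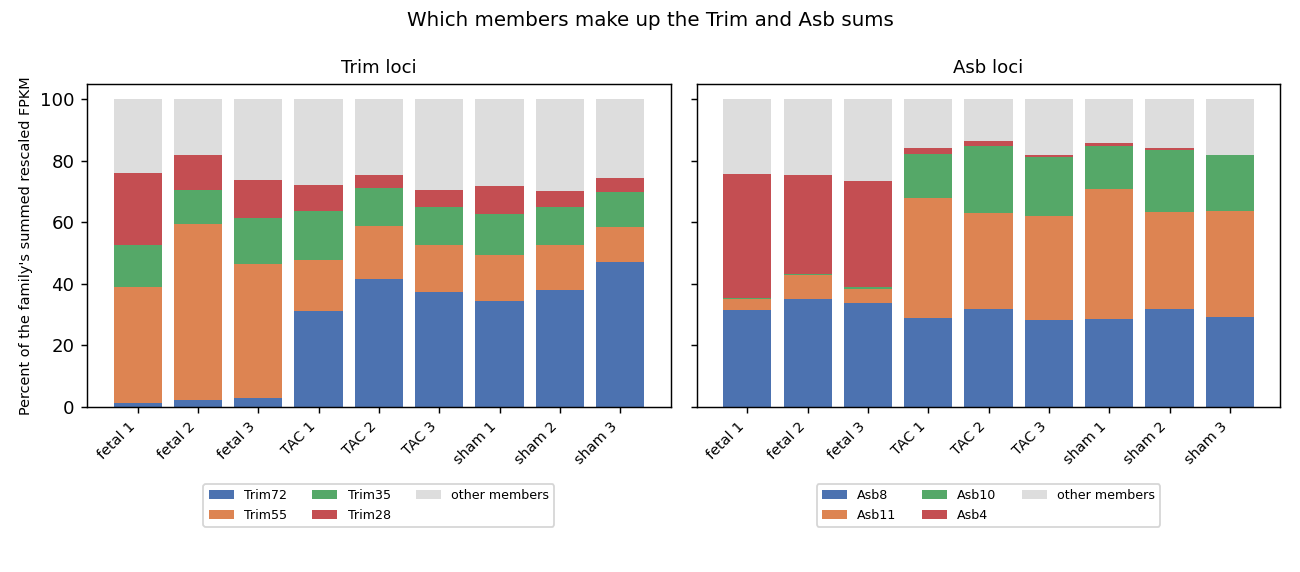
Share of each leading member in the summed rescaled FPKM of the 37 Trim loci (left) and the 10 Asb loci (right), in percent, for each of the 9 libraries. In fetal libraries Trim55 and Asb4 take the places that Trim72, Asb10 and Asb11 hold in TAC and sham libraries.

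Of 24 Usp loci 10 were higher and 2 lower, beside 22.6% and 23.2% of all loci. The 10 include Usp6nl, which is not a protease (log2 change 0.76). The 12 called were 50% of the family, close to the 45.8% of all loci, and the split was not tested. Their summed level was 548 ± 38.7 in fetal, 379 ± 6.78 in TAC and 372 ± 7.34 in sham libraries, and the 3 fetal sums (569, 503 and 571) lay above all adult ones (368 to 387). Like the sums of the other families, these include assembled transcripts. Such transcripts held 90.6%, 100% and 73.5% of the fetal, TAC and sham values of Usp22, and 95.5%, 50.1% and 23.6% of those of Usp32. Sums of reference transcripts alone were not taken, so the separation is not shown for them. Usp14, which trims ubiquitin from proteins held at the proteasome, had the highest mean over all 9 libraries (in sham Usp5 was at 57.8 ± 6.97 and Usp14 at 55.4 ± 11.3), with 131, 83.0 and 102 in fetal, 51.5, 62.9 and 62.5 in TAC and 65.5, 57.6 and 43.2 in sham libraries (log2 change 0.91 ± 0.21, adjusted p = 0.00772). Usp11, a protease of DNA repair, held 36.3, 33.3 and 39.8 in fetal, 10, 8.05 and 7.22 in TAC and 7.91, 7.09 and 9.32 in sham libraries (log2 change 2.04 ± 0.17, adjusted p = 3.77e-05). Every fetal value of both proteases exceeded every adult one. Usp20, a protease that binds the VHL ligase, held 12.9, 16.1 and 10.9 in fetal against 17.2 to 27.4 in adult libraries (log2 change -0.58 ± 0.19, adjusted p = 0.0354). Leaving out any 1 of TAC replicate 2 (adjusted p = 0.0501), fetal replicates 1 and 3 (0.085 and 0.121) and sham replicates 2 and 3 (0.0922 and 0.103) ended that call, and so did other settings: it was lost under equal library totals (0.111), in replicates 2 and 3 alone (0.0638) and in a fit of the fetal and sham libraries only (0.051). With reference transcripts alone its log2 change was 0.02 (0.995).

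Of 8 names of the interferon response 4 were found and 3 passed the filter. Of these 2 were lower in fetal libraries, beside 23.2% of all loci. The names were chosen with earlier results of these data known, so no excess is read from the count. Of the 2, Usp18 passed only through adult libraries. Usp18, which removes the ubiquitin-like ISG15, held 0.104, 0 and 0.156 in fetal, 12.2, 12.2 and 17.4 in TAC and 11.4, 14.2 and 15.5 in sham libraries (log2 change -3.75 ± 0.21, adjusted p = 5.63e-06), on a gene model of 630 nt. Trim21, an antibody receptor inside cells, held 4.36, 2.59 and 2.85 in fetal against 5.47 to 12.1 in adult libraries (log2 change -1.45 ± 0.26, adjusted p = 0.0024, and -1.40 with adjusted p = 0.257 for reference transcripts alone). Ube2l6, the E2 for ISG15, held 3.34, 3.49 and 2.75 in fetal and 4.22, 5.83 and 5.25 in sham libraries (log2 change -0.54 ± 0.22, adjusted p = 0.0797, and 0.0476 without TAC replicate 1). Lymphocyte markers were lower in fetal libraries for 4 of 6, with sums of 4.56 to 5.14 in fetal, 56.6 to 78.8 in TAC and 52.4 to 73.7 in sham and with Cd3e and Cd3d at 0 in all fetal libraries. The part of immune cells in these values was not tested.

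Partners of the members outside the name rule were taken from fixed lists, whose counts stand beside 22.6% higher and 23.2% lower among all loci. These lists were chosen with earlier results of these data known, and no excess is read from their counts. Both measured E1 enzymes were higher in fetal libraries, Uba1 with a log2 change of 0.43 (adjusted p = 0.0183) and Uba6 with 1.03 (adjusted p = 0.00296). Of 10 subunits and activators of the anaphase-promoting complex, the ligase that Fbxo5 inhibits and Ube2s serves, 7 were higher and 0 lower, led by Cdc20 (78.3 ± 2.58 in fetal, 4.55 ± 1.81 in sham, log2 change 3.89) and Anapc1 (27.2 ± 3.20 and 8.27 ± 1.71, log2 change 1.62). Of 18 cullin partners 4 were higher and 3 lower, a share under the 45.8% of all loci, as were those of the other ligases and other proteases. Skp2, an F-box protein under another name that targets a cell cycle inhibitor, held 14.4 ± 2.37 in fetal and 0.569 ± 0.221 in sham (log2 change 3.29). Every adult value of Skp2 lay below the filter of 1, so it passed only through fetal libraries and a difference was built into its choice. Cand1, which exchanges adapters on cullins, held 83.3 ± 24.9 and 27.3 ± 0.412 (log2 change 1.53). Lower were Keap1, the Cul3 adapter of the oxidative stress response (18.1 ± 1.56 and 41.5 ± 2.96, log2 change -1.15), and Cand2, the muscle relative of Cand1 (42.5 ± 5.29 and 68.1 ± 10, log2 change -0.66). Of 11 other ligases 4 were higher and 0 lower, among them Ube3a (log2 change 1.51) and Cbl (1.15). Of 14 other proteases 3 were higher and 2 lower, with Uchl1, abundant in neurons, at 42.5 ± 6.88 in fetal and 1.87 ± 2.38 in sham (log2 change 4.25), Vcpip1 at a log2 change of 1.24, and Josd2 (-1.26) and Bap1 (-0.40) lower. All values here are mean ± SD with n = 3, and each of the genes named had an adjusted p below 0.05. These calls are given for the main setting only. Whether they hold with reference transcripts alone or without 1 library was not examined.

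TAC against sham asked which members respond to pressure overload. In limma 0 of 125 members differed at an adjusted p below 0.05, where 0.0142% of all loci did. At an unadjusted p below 0.05 there was 1 member, beside 4.33% of all loci, and with the replicate block 0 and 2 members beside 0.0142% and 5.40%. The fitted log2 changes ran from -1.19 to 1.33 with a median of 0.00, and 114 of 125 lay within 0.5 of 0. TAC and sham values did not overlap for 10 members, 7 higher and 3 lower in TAC, beside 8.88% of all loci (4.29% higher, 4.58% lower).

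The single member at an unadjusted p below 0.05 was Klhl15, a Cul3 adapter for a subunit of the phosphatase PP2A. It held 4.13, 2.35 and 3.01 in TAC and 1.24, 1.88 and 1.0 in sham libraries (log2 change 0.80 ± 0.30, adjusted p = 1 in limma). The next smallest p-values belonged to Fbxo33 (8.53, 7.21 and 7.08 in TAC, 6.40, 5.57 and 3.90 in sham), Klhl6 (3.16, 2.56 and 2.78 against 5.63, 4.55 and 3.28) and Fbxo8 (31.7, 35.1 and 31.8 against 18.9, 31.3 and 24.7). Fbxw10 (0.491, 4.56 and 5.62 in TAC) and Cul4b completed the 6 smallest. The TAC and sham values of all 6 except Fbxw10 did not overlap, and each had an adjusted p of 1 in limma. These 6 were chosen by their small p-values, so the choice favoured a lack of overlap, which is no separate result. Of all 125 members 10 showed no overlap, beside 8.88% of all loci. With reference transcripts alone the log2 change of Klhl6 turned to 0.33. For the muscle-enriched list the median log2 change between TAC and sham was -0.02, and for the cell cycle list 0.01. Fbxl22 had 135 in TAC replicate 3 and 41.2 and 14.2 in the others, a log2 change of 1.19 that was not called. Of the value in TAC replicate 3, 95.7% lay in assembled transcripts, and its reference transcripts held 5.83 there.

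Fetal against TAC shares its fetal libraries with the first comparison, so the values repeat part of it. Of the 125 members 65 differed, 36 higher and 29 lower in fetal libraries, beside 45.8% of all loci (22.8% higher, 23.0% lower). Under equal library totals the split was 38 higher and 19 lower, but there the median log2 change of all loci was 0.24. The share of all loci called there was not taken, and no excess is read from that split. Both comparisons called 59 members, and these 59 had the same direction in each. The members called only against TAC were 6. Fbxo8 held 18.7, 15.8 and 18.7 in fetal and 31.7, 35.1 and 31.8 in TAC libraries (log2 change -0.86, adjusted p = 0.0058, and 0.0654 under equal library totals and 0.296 with reference transcripts alone). Trim67 was at 0.0373, 0 and 0 in fetal, 3.83, 14.7 and 8.85 in TAC and 0.123, 3.08 and 9.34 in sham libraries (log2 change -3.16 against TAC, adjusted p = 0.00845), so that sham replicate 1 stood with the fetal libraries. All of its TAC value lay in assembled transcripts, and its reference transcripts were at 0 in each TAC library. Trim67 passed the filter only through adult libraries, so a lower fetal level was built into its choice. Ube2l6 and Klhl22, a Cul3 adapter for Plk1, were lower in fetal than in TAC libraries (adjusted p = 0.0189 and 0.0437), and Fbxo38 and Usp15 higher (0.034 and 0.0374). The calls of these 4 were lost in 4 to 13 of 17 settings, and the replicate block ended those of Fbxo38 (0.0534) and Klhl22 (0.0668). Ube2l6 lost its call without fetal replicate 3 (0.0703). Fbxo38 lost it without TAC replicates 2 or 3 (0.0951, 0.08) or any fetal replicate (0.0676 to 0.0888), and Usp15 without TAC replicates 2 or 3 (0.0702, 0.119), fetal replicates 1 or 3 (0.117, 0.119) or sham replicates 1 or 2 (0.0513, 0.0522). Klhl22 lost it without any library except TAC replicate 2 (0.0551 to 0.124).

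Differences in the use of transcripts within a locus were looked for last. Shares of 55 reference transcripts at 33 member loci could be tested between fetal and sham libraries, and 0 were called in limma, where 1.58% of all 6450 shares tested were. At an unadjusted p below 0.05 there were 4, beside 13.5% of all shares: both Usp37 transcripts and 1 each of Cul4b and Usp38. The Usp38 transcript held 35.7%, 51.9% and 45.7% of its locus in fetal libraries, 100%, 69.1% and 100% in sham and 100% in each TAC library (adjusted p = 0.236), the rest being assembled transcripts. Without the filter on low values the 2 Usp37 transcripts were called, and in a fit of the fetal and sham libraries only, the Cul4b transcript.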

How the data were processed

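RNA from 9 rat heart libraries was prepared with the unstranded TruSeq RNA kit, per the labels' protocols. Per the submitters' processing notes the authors aligned reads to rn4 with TopHat 1.3.1 and assembled them with Cufflinks 1.0.3 and Cuffdiff, whose version was not stated in what was used here. FPKM as deposited carry a further constant in each library and are not counts, so they were rescaled. Isoforms were joined to genes by their common order in the deposited files. Reference transcripts (39492) that shared a gene in at least 5 libraries formed 29328 loci, and the 24662 of at least 200 nt were kept; a locus sums its reference transcripts and those assembled with them. Scaling was the median of ratios over 13164 loci above 0 in all libraries. Depth was implied by the deposited confidence bounds and is an estimate. Members and gene lists were chosen with earlier results of these data known.

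Loci at 1 or more in 3 libraries were tested on log2(value + 1) with limma 3.58.1 (R 4.3.3; trended eBayes, 9 libraries, 6 residual degrees of freedom) with Benjamini-Hochberg adjustment over all loci. This scale understates the change of weak genes, and nearby genes on the other strand cannot be separated. Transcript shares were tested as log2((transcript + 1)/(rest + 1)). The test was checked on simulated data. Named were the 2 highest and 2 lowest called members per family, each family's most abundant member, the measured members of the lists, the 6 smallest p-values of TAC against sham, up to 6 calls made only against TAC, and up to 2 genes per direction of the pathway lists; Fbxo16, Fbxo24, Fbxw9, Usp16, Usp6nl, Usp38 and members named for promoter letters were added after their values were seen. Replicate numbers come from the titles. Same-numbered libraries deviated together (correlations of 0.15 to 0.52, all above 0.1). Number 1 stood apart (0.47 to 0.52 with itself), whereas numbers 2 and 3 correlated across groups about as much with each other (0.13 to 0.28) as with themselves (0.15 to 0.28), and features in the assemblies start at 43 nt in each replicate 1 and at 63 nt elsewhere, so a fit with the replicate number as a block was run beside the main one. Other alternatives were a pseudocount of 0.1, no filter, a filter of 5, equal library totals, only the libraries compared, reference transcripts only, replicates 2 and 3 alone, and leaving out each library.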

Additional observations from a re-analysis of the deposited data

How the results depend on the processing

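Of 35 named members called between fetal and sham libraries, 20 kept the call and direction in every setting run. Equal library totals moved the median log2 change of all loci from 0.04 to 0.19 (fetal against sham) and from 0.03 to 0.24 (fetal against TAC), and lowered the members called lower in fetal than in TAC from 29 to 19, with none of the named changes reversed. With reference transcripts only, 25 members differed between fetal and sham (9 higher, 16 lower) and 24 between fetal and TAC (8 higher, 16 lower), the first beside 16.1% of all loci. There the direction reversed, with no call unless said, for Asb4 (-1.26), Asb7 (-0.63), Cul4b (-0.62), Fbxo45 (-1.72, called), Klhl13 (-0.99), Klhl38 (0.03), Usp20 (0.02), Usp37 (-0.89) and, in TAC against sham, Klhl6 (0.33). Cul3, not called, turned to -0.06 in replicates 2 and 3 alone and ran from -0.15 to 0.17 when 1 library was left out, below 0 without fetal replicate 1 (-0.15) or sham replicate 2 (-0.05). Leaving out 1 library gave 48 to 67 calls for fetal against sham (28 to 38 higher, 20 to 30 lower), 50 to 64 for fetal against TAC (28 to 37 higher, 22 to 27 lower), and 0 for TAC against sham and for shares. Transcript shares called were 2 without a filter and 1 with only the libraries compared. With the replicate block the counts stayed at 67, 0 and 65, and the pairing ended no named call except those of Asb16 (0.0655), Fbxo38 (0.0534) and Klhl22 (0.0668). Except where given, the share of all loci called in these settings was not taken. No excess among the members is read from the counts. Between 5 and 17 members per library had under 10 implied fragments, where small differences are not detectable. The implied number did not always follow the level. Usp22 had 2 in fetal replicate 2 at a value of 59.8 and 4379 in fetal replicate 1 at 65.6.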
